A study of Talpa occidentalis with 6 samples.

Results

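The ovarian portion of the mole ovotestis held 1095 short stretches of open chromatin not shared by its testicular portion or the male testis. Over them, both other tissues held only states 3, 4 or 5 of 5 numbered chromatin states. These stretches were chosen from ATAC-seq segmentations of gonads of the Iberian mole, Talpa occidentalis. ATAC-seq reads accessibility from where a transposase can insert adapters into DNA. Each segmentation divides the assembly talOcc4 into bins of 200 bp that carry 1 of these numbered states, from state 1, drawn in red and taken here as open, to state 5, drawn in white. A region is an ovarian portion segment of state 1 over which the testicular portion and the testis hold only states 3, 4 or 5, on scaffolds 1 to 17 without scaffold 15. These 1095 regions were 3.63% of the 30202 state 1 segments of the ovarian portion on the 16 scaffolds, with a Wilson 95% interval of 3.42% to 3.84%. The states in all 3 tissues chose the regions, so the states over a region describe the choice and support no test.

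All 3 groups were wild type animals at postnatal day 7, with no treatment named. The groups were the ovarian part of the ovotestis, the testicular part of the ovotestis and the testis, with 2 samples each. Both samples of a tissue share 1 deposited segmentation, so no value per sample, no spread between samples and no test between tissues could be had, and nothing below has a replicate check. Intervals cover counting error along 1 segmentation only, neighbouring segments share their libraries, and the depth of the libraries is unknown. Each suspension mixed the cells of a dissociated gonad or portion, so fewer cells with an open site and a less open site in each cell cannot be told apart. Whether the samples hold the cell types of their labels was not checked, since genes were not placed on this assembly here. The library numbers in the titles lie apart for the testis and for both portions, and no label names a batch. Any difference in how the testis libraries were made cannot be told apart from the tissue.

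Female moles carry ovotestes, gonads with an ovarian portion that makes oocytes and a testicular portion that resembles a testis but lacks germ cells. Granulosa cells surround the oocytes of an ovary, as Sertoli cells form the cords of a testis, and both arise from the same supporting cell precursors. Open chromatin away from gene starts often marks enhancers, which tend to be used in fewer cell types than promoters are. The comparison asks which accessible sites of the female gonad belong to its ovarian portion.

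The longest regions show what the rule finds. The longest of all spanned 1400 bp on scaffold 2 at 14882601 to 14884000, inside an ovarian run of states 1 and 2 of 4400 bp. Both other tissues held state 3 over its whole length, and their nearest bin of state 1 or 2 was 1.2 kb away for the testicular portion and 1.0 kb away for the testis. A further 5 regions spanned 1000 bp. Of these, the region on scaffold 4 at 24271201 to 24272200 stood most alone: the nearest state 1 segment was 342 kb away within the ovarian portion itself, 458 kb away for the testicular portion and 46.0 kb away for the testis. The region on scaffold 2 at 17476801 to 17477800 was the opposite case, because a segment open in all 3 tissues lay beside it, 1.6 kb away in the ovarian portion and 1.8 kb away in each of the others.

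Over the region on scaffold 12 at 60412401 to 60413400, the testicular portion held state 3 over 400 bp and state 4 over 600 bp, while the testis held state 3 throughout. A region on scaffold 8 at 72223801 to 72224800 and another at 55206801 to 55207800 of scaffold 17 lay in longer ovarian runs of states 1 and 2, of 2800 bp and 3400 bp. In both, the other tissues held state 3 over the region. The run on scaffold 17 also held bins of state 2 in the testicular portion and the testis, which the run on scaffold 8 did not.

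**Figure D1:**
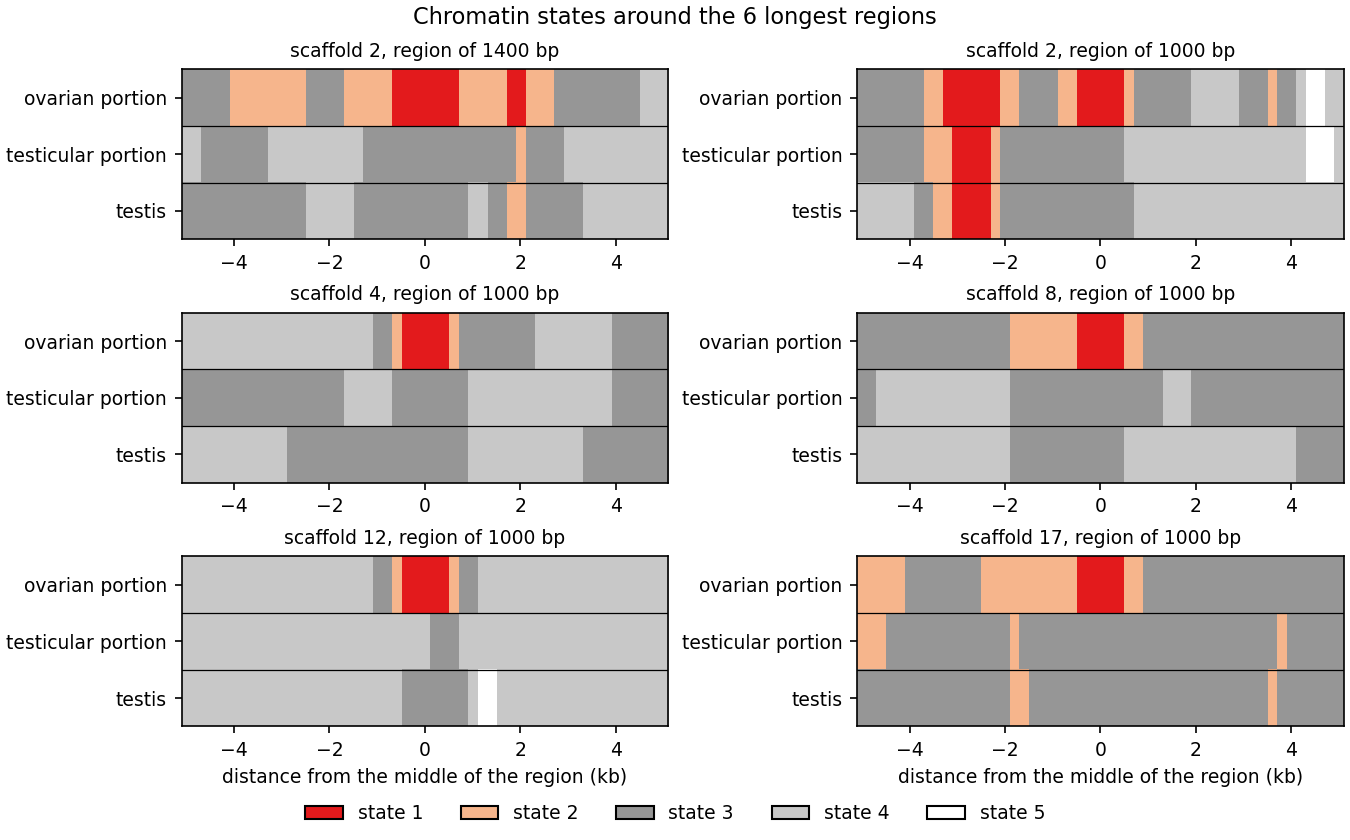
State of each 200 bp bin in the ovarian portion, the testicular portion and the testis, by distance in kb from the middle of each of the 6 longest regions. The red block at 0 is the region, 1400 bp long on scaffold 2 in the first panel and 1000 bp long in the other 5, and the rows under it hold only grey states 3 and 4 there.

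The 5 regions of 800 bp differed more in what the other tissues held. State 3 filled both other tissues over 3 of them, found on scaffold 3 (116732801 to 116733600), on scaffold 6 (2217001 to 2217800) and on scaffold 13 (74169601 to 74170400). On scaffold 4 at 47742001 to 47742800, the testis divided the region between 400 bp of state 3 and 400 bp of state 4, and the testicular portion held state 3. On scaffold 17 at 3302401 to 3303200, the testicular portion held state 3 and the testis state 4 over all 800 bp. The nearest state 1 segment to that last region was 97.4 kb away for the ovarian portion, 162 kb for the testicular portion and 253 kb for the testis.

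Most regions dropped by exactly the smallest step the rule allows. In the testicular portion, 882 of the 1095 regions held state 3 alone, 196 held state 4 alone and 17 held both. In the testis the numbers were 887, 184 and 24. State 5 covered no region in either tissue, and it covered 0.0% of the length of all ovarian state 1 segments in each. Both tissues held state 3 alone over 761 regions, which is 69.5%, and both held state 4 alone over 76, which is 6.94%. Among the rest, the testicular portion alone held the lower state over 114 regions with pure states, and the testis alone over 104. The others held states 3 and 4 together in 1 or both tissues. Of the 318.8 kb in all regions, the testicular portion had 82.1% in state 3 and the testis 83.0%. On the same 16 scaffolds, 1916 Mb in length, state 3 covered 33.8% of the testicular portion segmentation and 34% of that of the testis, and state 4 covered 58.6% and 58.2%. Over all ovarian state 1 segments, regions included, the testicular portion held state 3 over 3.01% of the length and state 4 over 0.4%. For the testis these shares were 3.4% and 0.365%. State 3 was thus the more common of states 3 and 4 there as well, so its excess is not particular to the regions. The label "open only in the ovarian portion" therefore holds by state 1, while most of the regions were in state 3 in the other tissues. Only the 76 regions, 0.252% of the ovarian segments, were in state 4 or 5 throughout both.

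**Figure D2:**
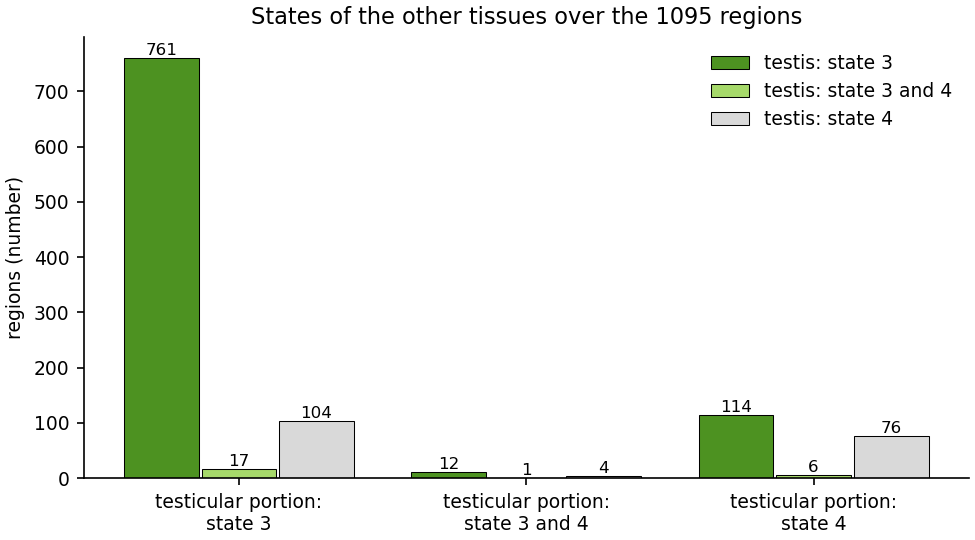
Number of regions by the states held in the testicular portion (groups of bars) and in the testis (colours). The tallest bar is the 761 regions in state 3 in both tissues, and 76 regions are in state 4 in both.

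Among the 76 regions in state 4 in both other tissues, the longest spanned 600 bp each. One lay on scaffold 10 at 59052201 to 59052800 in an ovarian run of states 1 and 2 of 1200 bp, with states 1 and 2 absent from the testicular portion for 21800 bp and from the testis for 4200 bp. The other lay on scaffold 17 at 36740201 to 36740800 in a run of 1000 bp, with gaps of 22000 bp and 22200 bp. These 76 regions sat in smaller ovarian elements than the 761 in state 3 in both tissues. Their median ovarian run of states 1 and 2 was 800 bp against 1000 bp, and their median run of states 1 to 3 was 3000 bp against 5800 bp.

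The regions were short. A single bin of 200 bp made up 682 regions, or 62.3% (59.4% to 65.1%), a pair of bins made up 346, and 67 spanned at least 600 bp. Of the other 29107 ovarian segments, 28.4% were a single bin (27.9% to 28.9%) and 45.8% spanned at least 600 bp. Among the 18117 ovarian segments that overlapped state 1 in both other tissues, 15% were a single bin. The share of ovarian segments that met the rule fell with segment length, from 7.62% of the segments of 200 bp (7.09% to 8.19%) to 4.41% at 400 bp, 1.28% at 600 bp and 0.122% at 800 bp or more (0.0681% to 0.218%). A longer segment has more bins that must all meet the rule, so part of this gradient is set by the rule. The regions held 3.63% of the ovarian segments and 1.77% of their length.

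**Figure D3:**
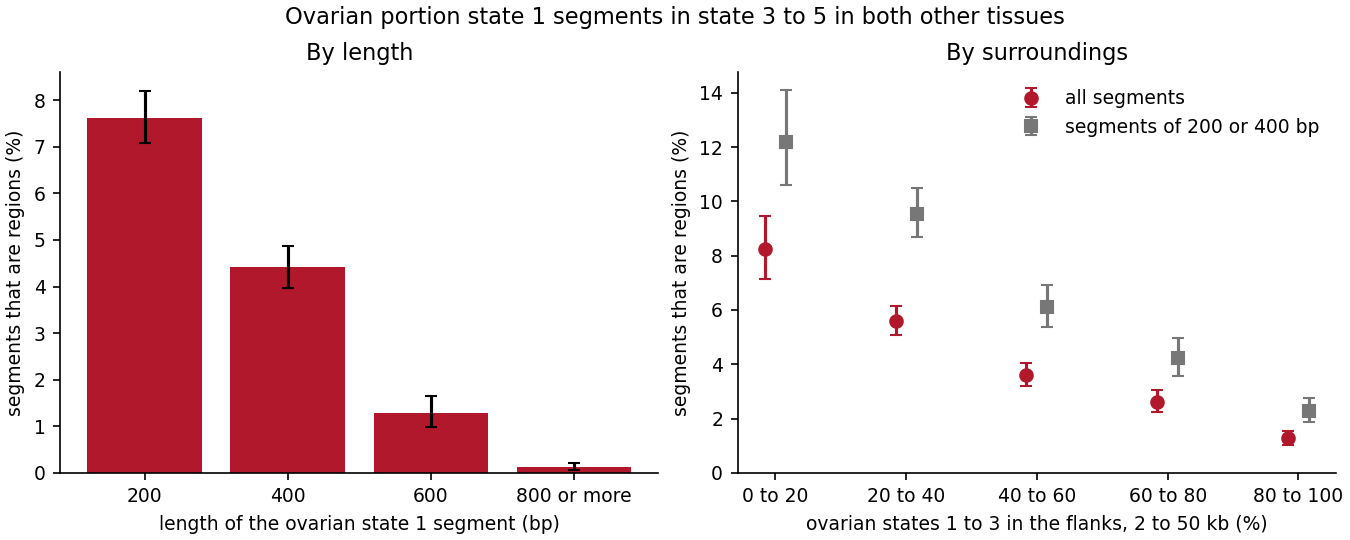
Percent of ovarian portion state 1 segments that are regions, by segment length in bp (left) and by the percent of the flanks, from 2 to 50 kb each side, in ovarian states 1 to 3 (right). Bars and points are shares with Wilson 95% intervals; the share falls from 7.62% to 0.122% with length, and from 8.23% to 1.27% with the flanks.

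The threshold divides a continuum. Of the 30202 ovarian segments, 22649 overlapped state 1 in at least 1 other tissue and 7553, or 25.0%, in none. Of those 7553, 5172 met state 2 in both other tissues, 714 only that of the testicular portion and 572 only that of the testis, which leaves the 1095 regions. Just outside the rule lay 808 segments that failed it by a single bin of state 2 in 1 tissue, 431 of them by the testicular portion and 377 by the testis. Just inside it, 27 regions touched a bin of state 1 or 2 of another tissue at their edge.

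In the ovarian portion most regions were the only state 1 segment of a narrow element. State 2 flanked 1083 of the 1095 regions on both sides (98.9%, 98.1% to 99.4%), and the other 12 had a lower state on at least 1 side. The run of states 1 and 2 around a region had a median length of 1000 bp, with quartiles of 800 and 1400 bp. Other ovarian segments sat in runs of 2000 bp (1200 to 3200 bp). Part of that gap goes with segment length, since other ovarian segments of 200 or 400 bp sat in runs of 1200 bp. The region was the only state 1 segment of its run in 1034 cases, or 94.4% (92.9% to 95.6%), against 78.5% of the other segments (78.0% to 78.9%).

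The difference between tissues usually took in the whole element. For 965 regions, or 88.1% (86.1% to 89.9%), the testicular portion and the testis held no state 1 or 2 anywhere in the ovarian run of states 1 and 2, so the shoulders of state 2 were also limited to the ovarian portion. The rule already clears the region itself, and the other ovarian segments cannot meet this condition, so the share has no comparison. The longest such run covered 5000 bp on scaffold 12 at 159801 to 164800, around a region of 600 bp at 162001 to 162600. The next covered 4600 bp on scaffold 11 at 79295801 to 79300400. In both of these, the testicular portion and the testis held state 3 over the region.

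Outside the element the tissues came closer to each other. At 0.4 kb from the middle of a region, 63.6% of ovarian bins were in states 1 and 2, against 1.14% of testicular portion bins and 1.1% of testis bins. At 1 kb these shares were 11.8%, 2.28% and 3.11%, and at 10 kb they were 6.76%, 4.62% and 5.53%. The flanks from 2 to 50 kb each side held states 1 to 3 over a median of 37.7% of ovarian, 37.3% of testicular portion and 38.1% of testis bins. The share was higher in the ovarian portion than in both others at 434 regions, or 39.6% (36.8% to 42.6%), and at 52.6% of the other ovarian segments (52.1% to 53.2%). Among segments of 200 or 400 bp these shares were 39.9% and 44.5%. For states 1 and 2 the order was the other way, with 50.4% of regions against 48.3% of the other segments, and 50.4% against 44.0% among those of 200 or 400 bp. Flanks with states 1 to 3 at least 20 points above both other tissues occurred at 53 regions, or 4.84%, against 6.24% of the other segments, and flanks at least 20 points below both at 29, or 2.65%, against 1.64%. At a margin of 10 points, 193 regions were above both (17.6% against 22.2%) and 131 below both (12% against 7.29%), so at the remaining regions the flanks of the ovarian portion lay within 10 points of at least 1 other tissue or between them.

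The other tissues were not flat over the regions. At the middle of a region, 81.4% of testicular portion bins and 82.5% of testis bins were in states 1 to 3, all of them state 3 by the rule. These shares fell to 51.0% and 51.1% at 1 kb and to 40.4% and 38.9% at 10 kb. State 3 was thus centred on the sites that were open in the ovarian portion. Where a tissue held state 3 over a region, its run of states 1 to 3 there had a median of 3600 bp for the testicular portion (quartiles 1800 and 7400 bp, 882 regions) and 3400 bp for the testis (1600 and 6600 bp, 887 regions). The ovarian runs of states 1 to 3 around these regions had medians of 5600 and 5400 bp. Runs of over 10 kb, in which state 3 is part of a broad stretch, accounted for 162 regions by the testicular portion and 143 by the testis.

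**Figure D4:**
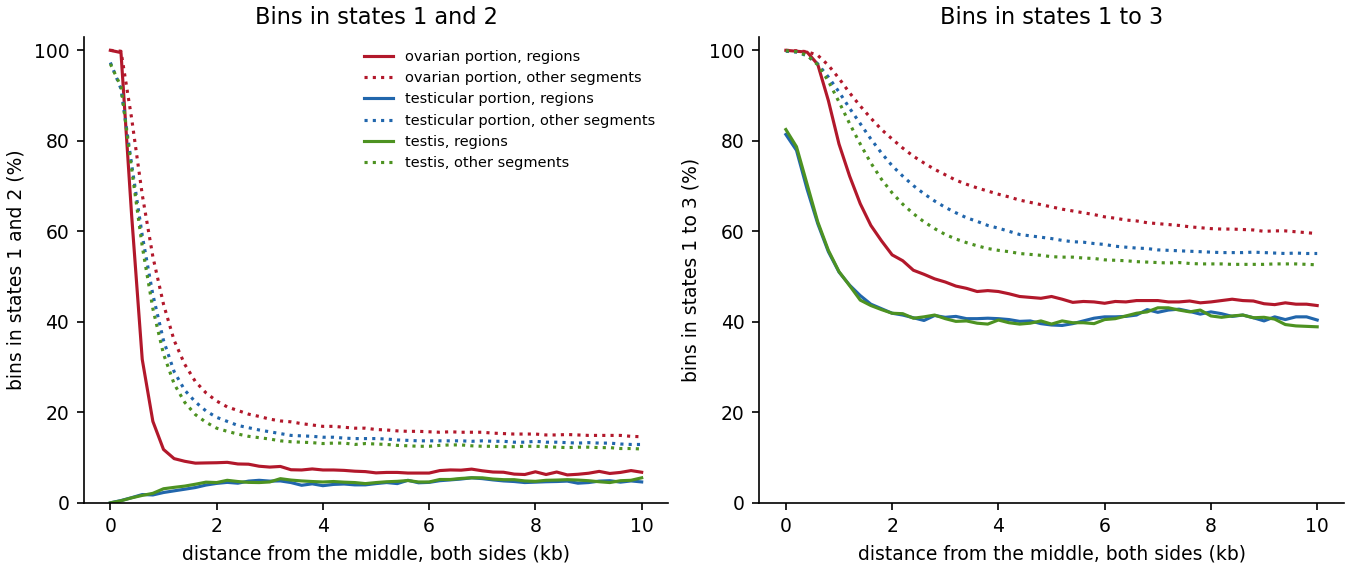
Percent of 200 bp bins in states 1 and 2 (left) and in states 1 to 3 (right) against distance in kb from the middle, for each tissue, over the 1095 regions (solid lines) and the 29107 other ovarian state 1 segments (dotted lines). On the left the ovarian line over the regions falls to 11.8% at 1 kb and stays a little above the others out to 10 kb, and on the right the lines of the other tissues also rise towards the middle, to 81.4% and 82.5%.

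Regions lay farther from other ovarian state 1 segments than the other ovarian segments did. The nearest other state 1 segment of the ovarian portion was at a median distance of 23.6 kb (quartiles 7.8 and 66.5 kb), against 10.2 kb (2.6 to 29.4 kb) for the other ovarian segments. For segments of 200 or 400 bp the medians were 24200 bp for regions and 10000 bp for the others. The nearest state 1 segment of the testicular portion was at a median of 30.6 kb and that of the testis at 26.8 kb. A state 1 segment of either lay within 10 kb of 296 regions, or 27% (24.5% to 29.7%), against 88.9% of the other ovarian segments. No state 1 or 2 of either tissue lay within 10 kb of 342 regions, or 31.2% (28.6% to 34%). The rule bars states 1 and 2 of both tissues over a region, so these distances are partly set by the choice. The other ovarian segments cannot meet the last condition, since each overlaps state 1 or 2 of another tissue.

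The regions farthest from any state 1 or 2 of the other tissues were of 200 or 400 bp, as most regions were. On scaffold 10, a region of 400 bp at 63522001 to 63522400 lay in state 4 in both tissues, 131 kb from their nearest bin of state 1 or 2. On scaffold 6, a region of 200 bp at 127308201 to 127308400 was 284 kb from such a bin of the testicular portion and 119 kb from one of the testis. On scaffold 4, a region of 200 bp at 64398401 to 64398600 was 122 and 113 kb away. The ovarian portion was sparse there too: its own next state 1 segment was 138, 143 and 124 kb away.

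Ovarian segments met the rule more often in sparse surroundings than in dense ones, by a grouping chosen after the values were seen. Where states 1 to 3 of the ovarian portion filled under 20% of the flanks, 181 of 2200 ovarian segments met the rule, or 8.23% (7.15% to 9.45%). The share was 5.6% where they filled 20% to 40%, 3.6% at 40% to 60%, 2.61% at 60% to 80%, and 1.27% at 80% or more (1.04% to 1.54%). The order was the same among segments of 200 or 400 bp, from 12.2% (10.6% to 14.1%) to 2.27% (1.86% to 2.77%). The median flank of a region held 37.7% of ovarian states 1 to 3, against 56.2% for the other ovarian segments. The other tissues also had fewer bins of states 1 and 2, which the rule bars, in the flanks of regions. Their medians were 3.12% for the testicular portion and 3.96% for the testis, against 7.08% and 7.92% at the other ovarian segments. How far the rule itself sets this gradient was not tested.

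Scaffolds followed the same pattern. The share of ovarian segments that met the rule ran from 2.07% on scaffold 17, which had 31 ovarian segments per Mb, to 5.98% on scaffold 5, which had 12.1. The 6 scaffolds with under 14 segments per Mb (scaffolds 1, 3, 4, 5, 6 and 13) had shares of 4.48% to 5.98%, and the other 10 had shares of 2.07% to 3.74%. Per Mb of scaffold the regions were spread more evenly, from 0.383 on scaffold 16 to 0.775 on scaffold 13. Scaffold 3 held the most regions, 105, and scaffold 16 the fewest, 33. By the median, regions also lay farther from scaffold ends than the other ovarian segments, at 33.3 Mb (interval of the median 31.4 to 35.1 Mb) against 25.3 Mb (24.9 to 25.8 Mb). The quartiles overlapped, at 16.1 and 48.6 Mb for regions and 10.6 and 41.5 Mb for the others. Within 1 Mb of an end lay 3.84% of regions and 3.98% of the others. Scaffold length ran from 59.1 Mb for scaffold 17 to 156 Mb for scaffold 1. Its part in the difference between the medians was not tested.

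**Figure D5:**
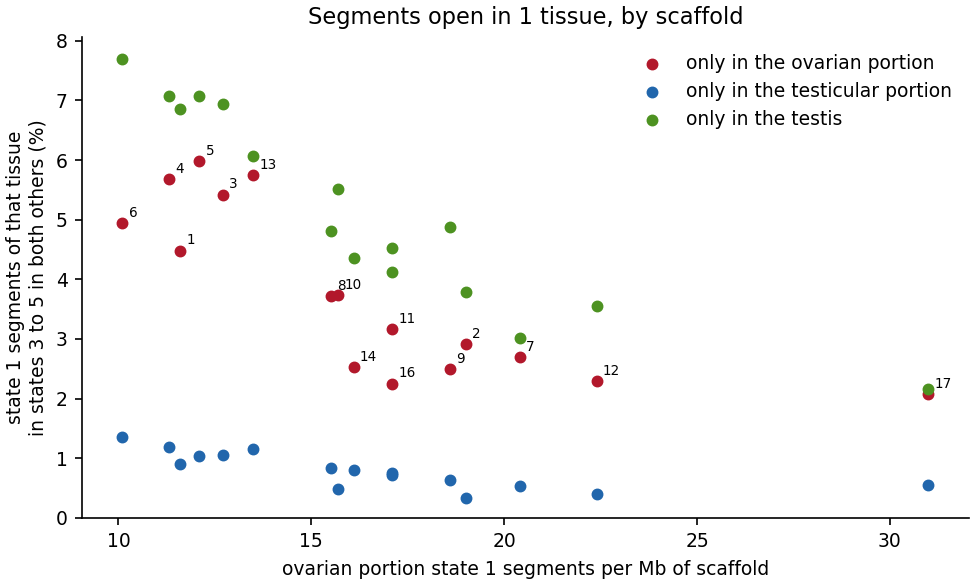
Percent of the state 1 segments of a tissue that lie in states 3 to 5 in both other tissues, for each of the 16 scaffolds, against the number of ovarian portion state 1 segments per Mb. Each point is a scaffold, numbered for the ovarian portion; the ovarian shares run from 2.07% on scaffold 17 to 5.98% on scaffold 5, and the points of the other tissues fall towards the right as well.

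Most regions had no other region within 50 kb. Of the 1079 neighbouring pairs on a scaffold, 7 were within 1 kb of each other, 28 within 10 kb and 76 within 50 kb. How these numbers compare with those of an even spread along the scaffolds was not tested. Joined over gaps of up to 50 kb, the regions formed 949 singles, 66 pairs, 3 groups of 3 and 1 group of 5. Among 1907 windows of 1 Mb, 1118 held no region, 569 held 1 and 3 held 5.

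The group of 5 lay near the end of scaffold 5, at 139568801 to 139611200, from 255 to 297 kb before the end. Over these 42.4 kb the ovarian portion held 6 state 1 segments, and states 1 and 2 covered 35.8%. The testicular portion and the testis held no state 1 there, and their states 1 and 2 covered 0.943% and 1.42%. This stretch is cut at the outer edges of the regions. State 1 of the testicular portion lay 3.8 kb before the first region and 1.2 kb after the last. State 1 of the testis lay 4.0 kb before the first region. State 3 covered 77.4% of this stretch by the testicular portion and 59.0% by the testis. The first pair of these regions, of 200 bp at 139568801 to 139569000 and of 400 bp at 139569601 to 139570000, shared an ovarian run of states 1 and 2 of 16400 bp with 6 state 1 segments, the longest such run around any region. Elsewhere in this run, the testicular portion and the testis held state 1 as well. The other 3 regions, at 139582801 to 139583000, 139594001 to 139594200 and 139610801 to 139611200, had runs of 1600, 3800 and 3800 bp. In the flanks of the 5 regions the ovarian portion was the highest: its states 1 and 2 covered 32.9% to 41.0%, against 14% to 24.2% for the testicular portion and 8.54% to 15.4% for the testis. These flanks overlap one another and hold other regions of the group, so they are not separate observations and are partly set by the choice. An excess of at least 10 points over both other tissues in the flanks' states 1 and 2 occurred at 42 regions, these 5 included, or 3.84% of regions against 5.13% of the other ovarian segments.

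After that run, the longest ovarian runs of states 1 and 2 around a region were found at scaffold 10, scaffold 1 and scaffold 11. Each of them also held state 1 or 2 of at least 1 other tissue. The run on scaffold 10, of 11000 bp, lay 107 kb from the scaffold's start around a region at 106801 to 107200, and that on scaffold 11, of 8000 bp, lay 1670 kb from an end around a region at 102008801 to 102009200. The run on scaffold 1, also of 8000 bp, was far from an end, around a region at 44449401 to 44449600. Within 2 Mb of a scaffold end lay 55 regions, or 5.02% (3.88% to 6.48%), against 6.48% of the other ovarian segments (6.2% to 6.76%).

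The same rule with another tissue first gave different numbers. For the testicular portion, 222 of 29956 state 1 segments, or 0.741% (0.65% to 0.845%), lay in states 3 to 5 in the ovarian portion and the testis. For the testis, 1763 of 34980, or 5.04% (4.82% to 5.27%), did so in both portions. The ovarian number lay between the others on 16 of 16 scaffolds, and came closest to the testis on scaffold 17, with 38 regions against 39. On scaffold 15, which the rule leaves out, the ovarian number was the highest, at 36 against 34 for the testis and 5 for the testicular portion. The ovarian portion had 4.93 times as many regions as the testicular portion, but the rule does not treat the portions alike. Ovarian segments were set against both testicular tissues, while testicular portion segments were set against the testis and the ovarian portion. How far this sets the gap was not tested. The size of the gap also depended on the states allowed elsewhere. The counts were 7553 and 4734 with any state but 1 allowed, and 76 and 5 with states 4 and 5 alone. The regions of all 3 tissues were similarly short: single bins made up 62.3% for the ovarian portion, 69.4% for the testicular portion (63.0% to 75.1%) and 64.0% for the testis (61.7% to 66.2%). At the middle of these regions the other tissues were mostly in state 3, which the rule allows. For the testis regions it held 66.3% of ovarian bins and 78.0% of testicular portion bins, and for the testicular portion regions 90.5% of ovarian bins and 91.9% of testis bins. The ovarian regions, with 81.4% and 82.5%, lay between these. The library numbers of the testis lie apart from those of both portions, and whether the libraries had a part in the testis numbers was not tested.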

How the data were processed

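Per the labels' protocols, gonads were dissociated and strained to single cells, and 50000 cells entered each tagmentation. The authors deposited 1 segmentation per mole tissue, and the labels name the same one for both samples. Its measure is a chromatin state number from 1 to 5, a category with no other unit. The segmentation method of the mole data and any shared model are not given in the sources used here, so the comparison assumes that a state means the same in each tissue. The submitters' processing notes name STAR 2.6.1d without a role. The gene annotation of the series lies on another assembly and was not used here.

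States were read into 200 bp bins (Python 3.11.15, numpy 2.4.6, pandas 2.3.3), and the rule was applied to every ovarian portion state 1 segment. Positions are 1-based. Shares carry Wilson 95% intervals and medians exact order-statistic 95% intervals (scipy 1.17.1). The counting was tested on simulated data. Regions to name were those of at least 600 bp (67, of which the 11 longest are given, and those in state 4 in both other tissues), the 5 in the longest ovarian runs, the 3 farthest from other open chromatin, those in state 5 in both other tissues (0) and the tightest group. The regions with the longest runs free of states 1 and 2 elsewhere, and the groupings by surroundings and by scaffold, were added after their values were seen. Members and measures were chosen with earlier results of these data known.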

Additional observations from a re-analysis of the deposited data

How the results depend on the processing

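The number of ovarian regions depended on the state allowed elsewhere: 1095 became 76 with only states 4 and 5 allowed and 7553 with any state but 1. It was 413 with segments of at least 400 bp, 1744 when only the testicular portion and 1850 when only the testis had to lie in states 3 to 5. It stayed within 1.5 times under the other alternatives, at 957 with a margin of 1 kb, 961 with ovarian runs of states 1 and 2, 1068 with a margin of 200 bp, 1131 with scaffold 15 and 1155 on all scaffolds. Without the outer 2 Mb of each scaffold, an alternative chosen after seeing the data, it was 1040. For the testicular portion the number was 222, and it became 5 with only states 4 and 5 allowed and 68 with segments of at least 400 bp. For the testis it was 1763, and it became 225 and 635. The order of the 3 tissues was the same in these settings. With segments of at least 400 bp, the median run of states 1 and 2 was 1200 bp, the median distance to testis state 1 was 32.8 kb and 14.2% of ovarian bins at 1 kb were in states 1 and 2. That last share was 8.78% with a margin of 1 kb. No paired analysis was possible because each tissue is 1 pooled segmentation, and leaving out a replicate was not run for the same reason. The depth is unknown and its part in the state calls was not tested. Most regions rest on 1 or 2 bins.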

Other observations

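No region open in the testis alone lay within 2 kb of an ovarian region (0 of 1095, 0% to 0.35%). For the other ovarian state 1 segments that share was also small, at 0.189% (0.145% to 0.246%). Within 10 kb, 8 ovarian regions had one, or 0.731% (0.371% to 1.44%), against 1.56% of the other segments (1.42% to 1.71%). Within 50 kb, 65 ovarian regions had one, or 5.94% (4.68% to 7.5%), against 8.15% (7.84% to 8.47%). Regions open in the testicular portion alone lay within 10 kb of 2 ovarian regions, or 0.183%, against 0.141% of the other ovarian segments. Within 50 kb the number was 14, or 1.28% (0.763% to 2.13%), against 0.804% of the other ovarian segments (0.708% to 0.913%).

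The 1 Mb windows with the most regions, 5 each, differed in their surroundings. On scaffold 3 from 119000001 to 120000000, the 5 regions were among 14 ovarian state 1 segments, and states 1 to 3 covered 27% of the ovarian, 22.4% of the testicular portion and 35.5% of the testis window. On scaffold 13 from 57000001 to 58000000, they were among 26 segments, with 30.7%, 32.6% and 34.3%. In the first 1 Mb of scaffold 10 they were among 21 segments, with 49.7%, 51.8% and 39.8%. In these windows the ovarian portion was not the tissue with the highest share of states 1 to 3. By states 1 and 2 it was the highest on scaffold 10, with 10.8% against 5.92% and 5.04%, and on scaffold 13, with 8.22% against 5.2% and 5.88%, and not on scaffold 3, with 3.18% against 2.1% and 4.24%. On scaffold 15, which the rule leaves out, 36 of 832 ovarian segments, or 4.33%, met the same condition.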
